A study of Homo sapiens with 8 samples.

Results

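The genes described here encode the aminoacyl tRNA synthetases of the cytosol and of the mitochondria. They were chosen by gene symbol from a list of 37, and 36 of them were found among the 11530 genes of the deposited table. The other, MARS2, was not analysed here. The 36 genes comprise 20 for cytosolic enzymes, 15 for mitochondrial enzymes, whose symbols end in 2, and TARSL2, a cytosolic threonyl enzyme that was kept apart although its symbol ends in 2 as well. RNA was sequenced from MonoMac 6, a cell line established from an acute monocytic leukaemia. In the APRIL group (4 libraries) the cells received human APRIL, the protein product of TNFSF13, at 100 ng/mL for 24 hours. The control group (4 libraries) received no APRIL. The series text gives both groups the same RPMI medium with baseline cytokines that it does not name. The labels call the medium of the treated cells serum-free and give no serum content for the control cells during these 24 hours, so an effect of APRIL and one of serum cannot be told apart. The labels do not say whether the libraries of a group came from separate cultures, so the spread used in every test may be technical. In bulk RNA, fewer cells of a kind and less RNA per cell cannot be told apart.

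Aminoacyl tRNA synthetases attach each amino acid to its tRNA and so supply the ribosome. They fall into class I and class II, which have unrelated catalytic folds. Most amino acids have separate cytosolic and mitochondrial enzymes, both encoded in the nucleus, while GARS and KARS each give rise to a cytosolic and a mitochondrial form. Several cytosolic enzymes sit in the multisynthetase complex, held together by the scaffold proteins AIMP1, AIMP2 and EEF1E1. Many cytosolic synthetase genes are known targets of ATF4, the transcription factor of the amino acid response.

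The deposited values are log2 values scaled by the authors, and whole reads were recovered from them for 31 of the 36 genes. Over the 10716 genes recovered, the libraries held 718965 reads (APRIL column 3) to 4232238 reads (APRIL column 2). A library is named here by its group and its place among that group's columns, which carries no other meaning. APRIL column 3 held the lowest or the highest value for 66.5% of all 11257 tested genes and control column 1 for 52.0%, so values without them are printed beside the results that they moved most. Of 12 myeloid markers 11 were tested, among them LYZ, MPO and CD33, as were 2 of 8 T and NK cell markers, 5 of 6 B cell markers, 1 of 6 erythroid markers and 0 of 10 stromal, epithelial and endothelial markers. Values were compared between libraries within a gene and not between genes. In APRIL column 2, FARS2 stood at a log2 value of 6.68 from 80 reads and EARS2 at 2.46 from 339 reads, although their longest transcripts measure 3884 and 3961 bases.

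The stretch of DNA before the start site was searched for the sites by which synthetase genes are known to be regulated. RefSeq promoters on GRCh38.p14 were matched for 29 of the 36 genes (38 promoters), and DARS, LARS, VARS, YARS, AARS2, VARS2 and TARSL2 had no entry. The amino acid response element was searched as TGATGNAAN on both strands in the 250 bases before each start. It was found in 4 of 38 synthetase promoters (10.5%), against 3.13% of all 35116 promoters. The E-box CACGTG, a site bound by MYC, reads the same on both strands and was found in 2 of 38 (5.3%), those of IARS and EARS2, against 6.34% of all. A match describes letters and is not a measured binding site. The 4 windows with the amino acid response element are printed because ATF4 targets are compared further on, 5′ to 3′ on the strand of the gene, with the match in capitals. They lie at chr16:70289661-70289719 (AARS, minus strand), chr7:30594819-30594877 (GARS, plus strand), chr9:92293698-92293736 (IARS, minus strand) and chr12:32756061-32756119 (YARS2, minus strand).
AARS: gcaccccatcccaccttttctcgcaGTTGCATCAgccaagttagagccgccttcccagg
GARS: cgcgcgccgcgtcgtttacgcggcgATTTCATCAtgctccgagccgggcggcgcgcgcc
IARS: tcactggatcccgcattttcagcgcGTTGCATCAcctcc
YARS2: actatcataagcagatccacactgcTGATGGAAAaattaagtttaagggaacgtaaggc
The match is on the minus strand of the window in AARS, GARS and IARS and on the plus strand in YARS2. It ends 6 bases before the start site in IARS, 26 bases before it in GARS, 180 in AARS and 189 in YARS2. These 4 genes did not share a direction, with changes of -0.23 (AARS), -0.10 (GARS), -0.25 (IARS) and 0.20 (YARS2), none past the threshold.

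None of the 36 synthetase genes differed between APRIL and control past the threshold. A change is the APRIL mean minus the control mean on the log2 scale, followed by ± its standard error. Limma was fitted to the 11257 genes whose unlogged value reached 1 in 4 or more libraries, and all 36 genes passed that floor. Limma with Benjamini-Hochberg adjustment called 0 of the 36 at an adjusted p under 0.05, as it did 0.0% of all tested genes. At an unadjusted p under 0.05 there were 0 of 36, against 11.9% of all tested genes (6.25% higher and 5.69% lower with APRIL). The groups did not overlap in 0 of 36, against 7.81% (3.62% with APRIL above and 4.19% with APRIL below). A negative change of any size was found in 21 of 36, near the 50.7% of all tested genes. The changes ran from -0.37 in DARS to 0.36 in PARS2. Their median size regardless of sign was 0.17, against 0.22 over all tested genes. Every 95% interval of the 36 held 0, and none reached beyond -0.76 or 0.90, so each of these genes was bounded to less than a doubling or halving between these groups of libraries. For 17 of the 36 the interval lay within 0.5 on either side of 0. The plot of all 36 changes shows the order within each compartment.

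**Figure D1:**
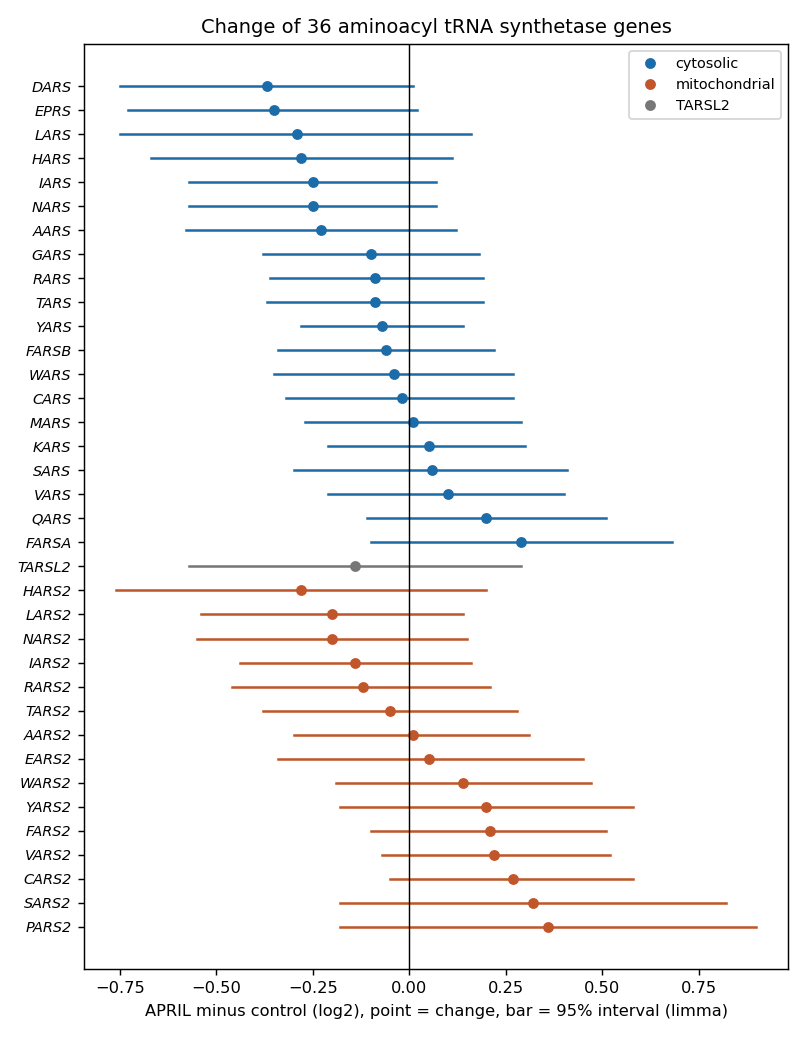
Change of each of the 36 genes, APRIL minus control on the log2 scale (x axis), with its 95% interval from limma (4 libraries per group), by compartment. Every interval crosses 0, and DARS (-0.37) and PARS2 (0.36) are at the ends.

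Among the 8 enzymes of the multisynthetase complex, 5 changes were negative and 3 positive, with a median of -0.17 against -0.005 over all tested genes, and 0 passed the threshold. That median was -0.10 without APRIL column 3 and -0.102 once trends with transcript length and GC content were removed. DARS, the aspartyl enzyme, stood at 9.53, 9.63, 8.89 and 9.35 in APRIL columns 1 to 4 and at 9.72, 9.49, 9.93 and 9.73 in control columns 1 to 4. APRIL columns 3 and 4 lay below every control library, while APRIL columns 1 and 2 lay within the control range. The change was -0.37 ± 0.17 (adjusted p = 0.40, limma) and -0.21 without APRIL column 3. EPRS carries the glutamyl and the prolyl enzyme in a single chain. It stood at 5.45, 5.59, 4.98 and 5.13 with APRIL and at 5.91, 5.55, 5.60 and 5.50 in control. APRIL columns 1, 3 and 4 lay below all controls and APRIL column 2 did not. The change was -0.35 ± 0.17 (adjusted p = 0.40, limma), and it was -0.16 without both APRIL column 3 and control column 1. IARS, the isoleucyl enzyme, stood at 5.94, 5.88, 5.50 and 5.70 with APRIL and at 6.23, 5.97, 5.97 and 5.86 in control. Its groups overlapped through APRIL columns 1 and 2, and its change was -0.25 ± 0.14 (adjusted p = 0.414, limma), or -0.09 without APRIL column 3 and control column 1.

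The other 5 enzymes of the complex gave values on both sides of 0. LARS, the leucyl enzyme, which is also known as a leucine sensor for the growth kinase mTORC1, gave -0.29 ± 0.20. Its 4 APRIL values were 8.16, 8.16, 7.25 and 7.84, so APRIL column 3 was far below the others, and the change was -0.09 without it and 0.00 without control column 1 as well. QARS, the glutaminyl enzyme, stood at 6.36, 6.18, 6.66 and 6.35 with APRIL and at 6.05, 6.14, 6.27 and 6.30 in control. APRIL columns 1, 3 and 4 lay above all controls, with a change of 0.20 ± 0.14 (adjusted p = 0.465, limma) and of 0.11 without APRIL column 3. RARS, KARS and MARS, the arginyl, lysyl and methionyl enzymes, gave -0.09 ± 0.12, 0.05 ± 0.12 and 0.01 ± 0.13, and MARS was at -0.07 without control column 1. KARS was among the least variable of the genes, from 4.58 to 4.65 with APRIL and from 4.51 to 4.66 in control, with 186 to 1154 reads per library. Exons of MARS overlap those of ARHGAP9 and of DDIT3 on the opposite strand, and the kit named in the labels does not mark strand, so reads there cannot be told apart. The scaffolds gave values of both signs, with changes of 0.35 ± 0.20 in AIMP2, 0.17 ± 0.28 in EEF1E1 and -0.12 ± 0.15 in AIMP1, and 0 of 3 passed. AIMP2 stood at 8.48, 8.13, 9.04 and 8.26 with APRIL and at 7.85, 8.27, 8.06 and 8.31 in control, and AIMP1 at 4.97, 4.91, 5.12 and 4.71 against 5.33, 4.86, 5.03 and 4.97. EEF1E1 stood at 5.03, 4.90, 6.16 and 5.24 with APRIL and at 5.66, 5.02, 4.79 and 5.17 in control. APRIL column 3 was the highest library in AIMP2 and EEF1E1, and without it the changes were 0.16 and -0.10.

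Of the 12 cytosolic enzymes outside the complex, 9 changes were negative and 3 positive (median -0.065), and again 0 passed. Their median was -0.062 without APRIL column 3. With the length and GC trends removed it was -0.107, near the -0.102 of the complex. NARS, the asparaginyl enzyme, stood at 5.29, 5.29, 4.78 and 5.08 with APRIL and at 5.45, 5.26, 5.38 and 5.35 in control. APRIL columns 1 and 2 lay just above control column 2, the lowest control library, and the other APRIL libraries below it. The change was -0.25 ± 0.15 (adjusted p = 0.416, limma) or -0.14 without APRIL column 3. HARS, the histidyl enzyme, stood at 4.14, 3.97, 3.37 and 3.94 with APRIL and at 4.13, 4.12, 4.10 and 4.17 in control. Its control libraries were tight (4.13 ± 0.03, SD, n = 4) and its APRIL libraries were not (3.85 ± 0.33), with APRIL column 1 inside the control range and the other 3 below it. The change was -0.28 ± 0.17 (adjusted p = 0.431, limma) and -0.12 without APRIL column 3. AARS, the alanyl enzyme and a known ATF4 target, stood at 5.67, 5.75, 5.23 and 5.61 with APRIL and at 5.58, 5.83, 6.00 and 5.76 in control. Only APRIL column 3 was below all its controls, and the change was -0.23 ± 0.16 (adjusted p = 0.458, limma), or -0.12 without that library.

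Phenylalanyl tRNA synthetase of the cytosol is built from the subunits FARSA and FARSB, and these did not give like values. FARSA stood at 12.33, 12.14, 12.53 and 12.43 with APRIL and at 11.53, 12.27, 12.30 and 12.17 in control, where control column 1 was the lowest library. Its change was 0.29 ± 0.17 (adjusted p = 0.423, limma) and 0.11 without control column 1. FARSB gave -0.06 ± 0.13, with 9.41 ± 0.11 (SD, n = 4) under APRIL and 9.47 ± 0.19 in control, and its change was 0.02 without control column 1. YARS, the tyrosyl enzyme, had the smallest standard error of the 36 and stood at 9.28, 9.23, 9.24 and 9.23 with APRIL and 9.31, 9.26, 9.37 and 9.30 in control. APRIL column 1 lay inside the control range and the other 3 APRIL libraries below it, with a change of -0.07 ± 0.10 and an interval from -0.28 to 0.14. VARS, the valyl enzyme, which is bound to elongation factor 1, gave 0.10 ± 0.14, and its control column 1, at 6.69, lay below the other 7 libraries. Without it the change was -0.01. WARS, the tryptophanyl enzyme, is known as a gene induced by interferon gamma and gave -0.04 ± 0.14, or 0.02 without APRIL column 3 and -0.12 without control column 1. Of 11 other interferon gamma genes 7 were tested, 5 with a positive and 2 with a negative change (median 0.27), and 0 passed. IRF1, a transcription factor of that response, gave 0.42 ± 0.17 and was the only 1 of the 7 in which all 4 APRIL libraries lay above all controls, against 3.62% of all tested genes. With the length and GC trends removed IRF1 was at 0.48. GARS, TARS, SARS and CARS, the glycyl, threonyl, seryl and cysteinyl enzymes, gave -0.10 ± 0.13, -0.09 ± 0.13, 0.06 ± 0.16 and -0.02 ± 0.13. SARS was highest in APRIL column 3, at 5.61, and without that library the 4 genes were at -0.07, -0.05, -0.06 and 0.02, so SARS and CARS turned sign. TARSL2 gave -0.14 ± 0.20, with as few as 14 reads in APRIL column 3, and 0.03 without that library.

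The mitochondrial enzymes had 9 positive and 6 negative changes, with a median of 0.054, and 0 of 15 passed. The median was 0.092 without APRIL column 3 and 0.001 without control column 1. CARS2, the cysteinyl enzyme, stood at 6.31, 6.21, 6.72 and 6.31 with APRIL and at 6.10, 6.11, 6.05 and 6.23 in control. APRIL columns 1, 3 and 4 lay above all controls and APRIL column 2 just inside, with a change of 0.27 ± 0.14 (adjusted p = 0.40, limma) and of 0.15 without APRIL column 3. VARS2, the valyl enzyme, stood at 5.40, 5.32, 5.47 and 5.54 with APRIL and at 4.96, 5.22, 5.28 and 5.37 in control. Here too APRIL column 2 lay inside the control range and the other 3 above it. The change was 0.22 ± 0.13 (adjusted p = 0.42, limma) and 0.14 without control column 1. Exons of VARS2 share 22.0% of their bases with GTF2H4, so some of its reads may belong to that gene.

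Several mitochondrial enzymes rested on few reads. PARS2, the prolyl enzyme, stood at 2.23, 2.39, 3.12 and 2.62 with APRIL and at 1.73, 2.31, 2.54 and 2.33 in control. APRIL column 3 was the highest and control column 1 the lowest library. The change was 0.36 ± 0.24 (adjusted p = 0.457, limma), 0.02 without those 2 libraries, and -0.029 with libraries weighted by quality. Its reads numbered 26, 55, 14 and 38 with APRIL and 13, 13, 21 and 29 in control. In a library with 13 reads, counting alone gives an SD of 0.40 on the log2 scale, a figure that covers counting error only. FARS2, the mitochondrial phenylalanyl enzyme, works as a single chain and stood at 7.06, 6.68, 6.98 and 7.01 with APRIL and at 6.57, 6.61, 6.90 and 6.84 in control. APRIL columns 1, 3 and 4 lay above all controls, with a change of 0.21 ± 0.14 (adjusted p = 0.454, limma), from 15 to 80 reads per library. SARS2 and YARS2, the seryl and tyrosyl enzymes, gave 0.32 ± 0.22 and 0.20 ± 0.17, and without APRIL column 3 they gave 0.13 and 0.12. SARS2 overlaps AC011455.2 over 46.2% of its exon bases and MRPS12, a mitochondrial ribosomal protein gene, over 10.8%, so its value is uncertain. WARS2 gave 0.14 ± 0.15, EARS2 0.05 ± 0.18 and AARS2 0.01 ± 0.14. Without APRIL column 3, the highest library of WARS2 and the lowest of EARS2 and AARS2, they gave 0.03, 0.18 and 0.09. EARS2, the mitochondrial glutamyl enzyme, also charges the glutamine tRNA there and stood at 2.48, 2.46, 1.92 and 2.35 with APRIL and at 2.09, 2.39, 2.22 and 2.29 in control.

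The remaining mitochondrial enzymes were on the negative side. HARS2, the histidyl enzyme, gave -0.28 ± 0.22 from 13 to 144 reads. It stood at 3.42, 3.48, 2.72 and 3.77 with APRIL and at 3.74, 3.64, 3.45 and 3.69 in control. Its lowest and its highest library were both APRIL libraries, columns 3 and 4. LARS2 and NARS2, the leucyl and asparaginyl enzymes, both gave -0.20, with standard errors of 0.15 and 0.16. IARS2 gave -0.14 ± 0.13, RARS2 -0.12 ± 0.15 and TARS2 -0.05 ± 0.15. TARS2 stood at 3.14, 3.28, 3.01 and 3.22 with APRIL and at 3.08, 3.09, 3.32 and 3.37 in control, and its groups overlapped. APRIL column 3 was the lowest library in all 6 of these genes. Without it HARS2, LARS2 and NARS2 gave -0.08, -0.07 and -0.08, and IARS2, RARS2 and TARS2 gave -0.07, -0.05 and 0.00.

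By library, 25 of the 36 genes had their lowest or highest value in APRIL column 3, near the share over all tested genes of 66.5%. It was the lowest library for 18 genes, 9 of them cytosolic and 8 mitochondrial, and the highest for 7. Control column 1 was the lowest library for 8 genes and the highest for another 8. Those lowest in APRIL column 3 included DARS, EPRS, LARS, HARS, IARS, NARS and AARS, and those highest there included FARSA, QARS, SARS, CARS2, SARS2 and PARS2. APRIL column 3 was also the shallowest library, with a median of 78 reads over the 31 recovered genes against 611 in APRIL column 2. In it 10 of the 31 genes had under 50 reads, 9 of them mitochondrial. The part of depth in these values was not tested.

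**Figure D2:**
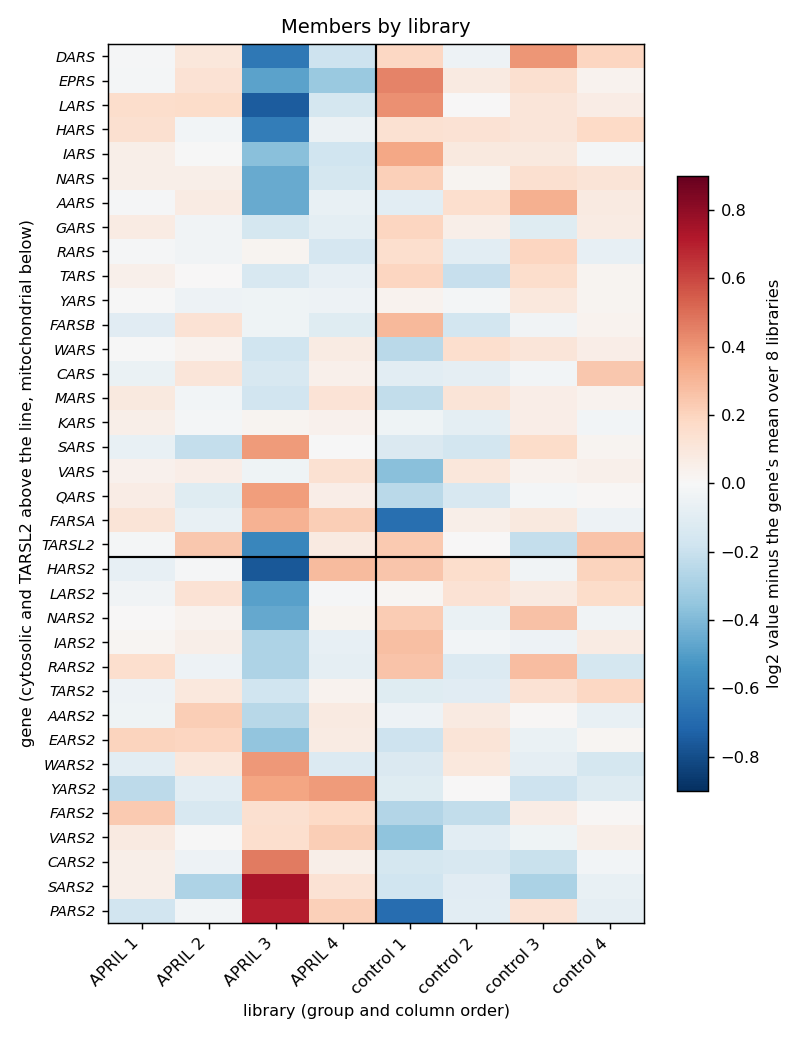
Log2 value of each gene in each library minus the gene's mean over the 8 libraries (colour), with cytosolic genes and TARSL2 above the line and mitochondrial genes below, ordered by change. The APRIL 3 column holds the lowest value of 18 genes and the highest of 7.

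Set side by side, the cytosolic enzymes had a median change of -0.076 and the mitochondrial enzymes 0.054. The 2 groups of libraries overlapped in the difference between the compartment means. The mean of the cytosolic enzymes minus the mean of the mitochondrial enzymes within a library does not depend on how that library was scaled. After each gene was centred on its own mean, it was 0.024, 0.002, -0.172 and -0.138 in APRIL columns 1 to 4. In control columns 1 to 4 it was 0.105, 0.022, 0.102 and 0.054. APRIL columns 3 and 4 lay below every control library, while APRIL column 1 was above control column 2, so the groups overlapped. The APRIL mean was -0.07 ± 0.10 (SD, n = 4), the control mean was 0.07 ± 0.04, and they differed by -0.142. Without APRIL column 3 it was -0.108, and without both that library and control column 1 it was -0.097. No test was made of it because the genes were chosen with earlier results known. In APRIL column 3 the cytosolic mean was at -0.179 and the mitochondrial mean at -0.006, and in APRIL column 4 they were at -0.045 and 0.093. The medians in APRIL column 3 were -0.152 (cytosolic) and -0.179 (mitochondrial), so by medians the cytosolic enzymes were not the lower there. In APRIL column 4 the medians were -0.062 and 0.072, in column 1 0.042 and 0.007, and in column 2 0.002 and -0.002. In control columns 1 to 4 the cytosolic medians were 0.084, 0.013, 0.101 and 0.032. The mitochondrial medians there were -0.111, -0.061, -0.035 and -0.024. By medians the cytosolic minus mitochondrial difference was lower in every APRIL library than in every control library, so the groups overlapped by means only. The margin, between APRIL column 1 and control column 4, was narrow, and the difference of medians was not tested.

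**Figure D3:**
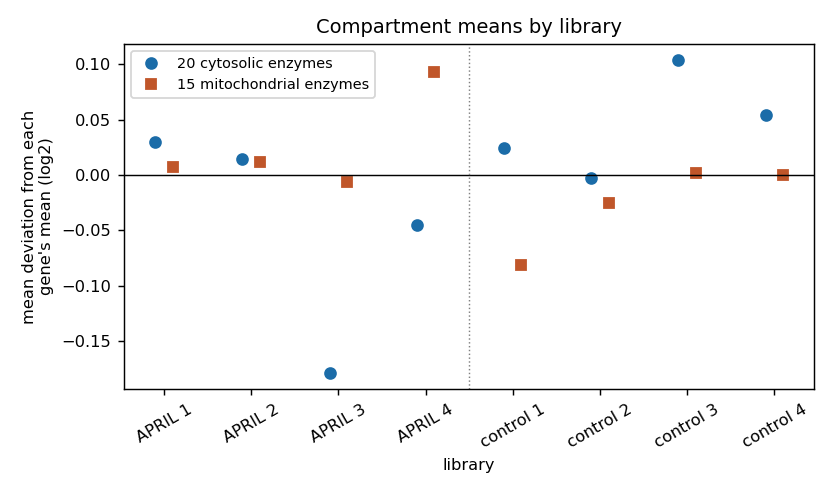
Mean deviation from each gene's own mean (log2) of the 20 cytosolic and the 15 mitochondrial enzymes in each of the 8 libraries. The cytosolic mean is below the mitochondrial mean in APRIL columns 3 and 4 and above it in the other 6 libraries.

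Within each catalytic class the cytosolic median lay below the mitochondrial one. Cytosolic class I and class II enzymes, 10 genes each, had medians of -0.052 and -0.094, with 3 positive and 7 negative changes in each class. EPRS was counted in class I only, although it also carries the prolyl enzyme, and PARS2, the mitochondrial prolyl enzyme, was counted in class II. Mitochondrial class I (8 genes) and class II (7 genes) had medians of 0.095 and 0.007, with 5 of 8 and 4 of 7 changes positive. With the length and GC trends removed, the class I medians were -0.092 for the cytosol and 0.074 for the mitochondria, and the class II medians were -0.137 and -0.129. Paired by amino acid, 16 comparisons of a cytosolic with a mitochondrial gene could be made, in which EPRS and FARS2 each appear more than once. The cytosolic change was the more negative in 13 of 16 and the more positive in 2, and in HARS and HARS2 it differed by 0.00. It was the more negative in 11 of 16 with the length and GC trends removed and in 15 of 16 without APRIL column 3. The widest gap was that of EPRS and PARS2 at -0.71. It was -0.44 without APRIL column 3 and -0.37 with the length and GC trends removed. Without both APRIL column 3 and control column 1, EPRS was at -0.16 and PARS2 at 0.02. Next came EPRS and EARS2 at -0.40 and CARS and CARS2 at -0.29. EPRS minus EARS2, set against its control mean, stood at -0.42, -0.27, -0.33 and -0.61 with APRIL and at 0.43, -0.24, 0.00 and -0.19 in control. It was the only 1 of the 16 pairs whose groups did not overlap, by the narrow margin between APRIL column 2 and control column 2. Of all tested genes, taken singly, 7.81% did not overlap. With the length and GC trends removed the gap of EPRS and EARS2 was -0.24. CARS minus CARS2 stood at -0.26, 0.01, -0.75 and -0.15 with APRIL and at -0.08, -0.08, 0.03 and 0.12 in control. It rested on APRIL column 3, without which the gap was -0.14. At the other end TARS and TARS2 differed by -0.03 and HARS and HARS2 by 0.00. HARS and HARS2 lie head to head and share 437 exon bases on opposite strands, so part of their reads cannot be told apart.

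**Figure D4:**
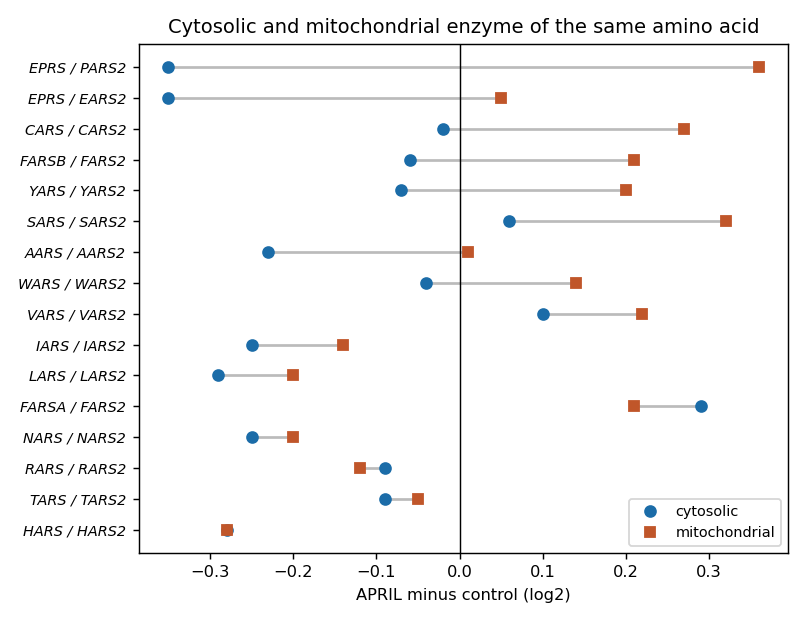
Change (APRIL minus control, log2) of the cytosolic and the mitochondrial enzyme of the same amino acid, 16 pairs ordered by the size of their gap. EPRS with PARS2 has the widest gap (-0.71) and HARS with HARS2 the narrowest (0.00).

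The changes went with the GC content of the transcripts. Across the 36 genes the change had a Spearman correlation of 0.66 with the GC content of the longest GENCODE transcript and of -0.21 with its length, given as a description, since the genes share the same 8 libraries. Over 10810 tested genes the same values were 0.51 and -0.54. Among the 18 genes below the median GC content of the set (50.35%), 15 changes were negative, and among the 18 at or above it 6 were. Without APRIL column 3 and control column 1 the correlation with GC content was 0.40 over the 36 genes and 0.41 over all. The 6 genes with the most negative changes were all below that median: DARS (41.2%), EPRS (43.2%), LARS (41.5%), HARS2 (49.9%), HARS (46.8%) and IARS (43.6%). The 6 with the most positive changes were all above it: PARS2 (54.0%), SARS2 (61.2%), FARSA (60.3%), CARS2 (54.9%), VARS2 (59.3%) and FARS2 (52.4%). AARS, at 53.5% with a change of -0.23, lay off this pattern. The mitochondrial enzymes had the higher median GC content, 51.6% against 47.7% for the cytosolic ones. Once the trend of each library with length and GC content had been taken out, the medians stood at -0.102 for the cytosolic and -0.028 for the mitochondrial enzymes, and the difference between the compartment means was -0.090 in place of -0.142. The trends were fitted over all genes, where the correlation with GC content was then 0.0. Over the 36 genes it was still 0.28, so part of the relation remained in this set. FARSA was then at -0.037 in place of 0.29, SARS2 at -0.03 in place of 0.32, EPRS at -0.17, IARS at -0.09, QARS at 0.06 and LARS at -0.11. DARS kept -0.37, CARS2 0.19, VARS2 0.18 and FARS2 0.20. AARS moved to -0.28 and was then the only 1 of the 36 at an unadjusted p under 0.05, against 8.24% of genes in that fit. It was also 1 of 3 genes without overlap, with VARS and YARS, against 6.59% of genes, and limma called 0 genes after adjustment.

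**Figure D5:**
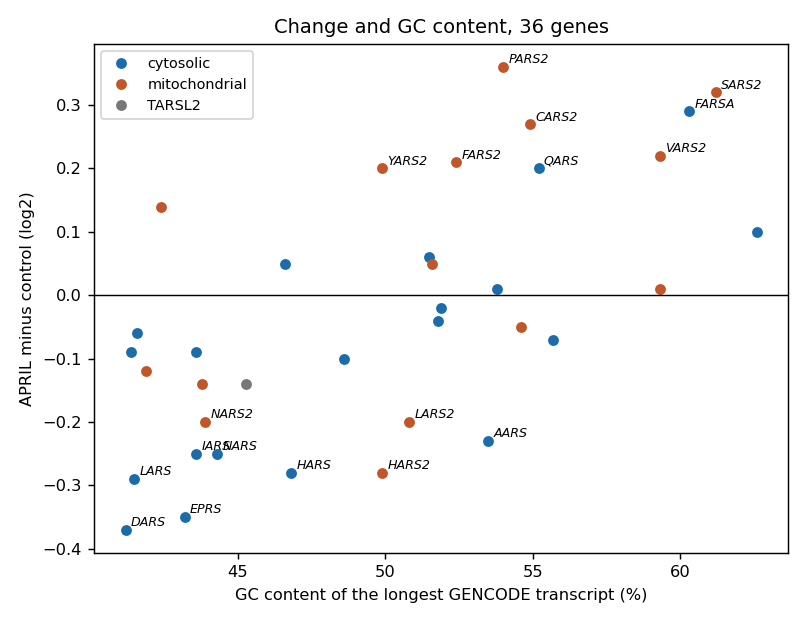
Change of each gene (APRIL minus control, log2) against the GC content of its longest GENCODE 29 transcript in percent, by compartment. DARS (41.2%) and EPRS (43.2%) lie below 0 and SARS2 (61.2%) and FARSA (60.3%) above it, while WARS2 (42.4%) lies above 0 at low GC content.

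Genes around the synthetases gave the same outcome, with 0 past the adjusted threshold. Of 29 tested genes of the ATF4 amino acid response, 21 changes were positive and 8 negative (median 0.099), and at an unadjusted p under 0.05 there were 2 higher and 3 lower, where all tested genes had 6.25% higher and 5.69% lower. The 2 were CHAC1, which degrades glutathione, at 0.63 ± 0.24, and TRIB3, a pseudokinase that restrains the response, at 0.41 ± 0.18. Without APRIL column 3 they were at 0.42 and 0.25, and with the length and GC trends removed at 0.23 and 0.12. The 3 were SLC7A11, STC2 and SLC38A2, a neutral amino acid carrier at -0.35 ± 0.15. SLC7A11, the cystine importer, gave -0.56 ± 0.16, at 6.69, 6.74, 6.27 and 6.36 with APRIL and 7.21, 7.18, 7.15 and 6.77 in control. All 4 APRIL libraries lay below all controls in SLC7A11, and likewise in STC2, a secreted glycoprotein, at -0.57 ± 0.22 (-0.40 without APRIL column 3), as in 4.19% of all tested genes. With the length and GC trends removed the median of this list was -0.043, and SLC7A11, STC2 and SLC38A2 were at -0.23, -0.49 and -0.14. Among 9 cytosolic partners (elongation factor 1, tRNA export and selenocysteine tRNA), 5 changes were positive and 4 negative. EEF1D, a subunit of the elongation factor complex that holds VARS, gave 0.44 ± 0.19, XPOT, the tRNA exporter, -0.29 ± 0.14 (-0.05 with the trends removed), and PSTK, a kinase acting on the selenocysteine tRNA, -0.73 ± 0.39. Without APRIL column 3, EEF1D was at 0.26, XPOT at -0.20 and PSTK at -0.39. With the trends removed EEF1D was at 0.27 and PSTK at -0.63. Among 20 mitochondrial partners, which act on mitochondrial tRNA or carry it to the ribosome, 13 changes were positive and 7 negative (median 0.071, or 0.044 without APRIL column 3). Of these 20 genes 2 had all APRIL libraries above all controls and 1 had them below, against 3.62% and 4.19% of all tested genes. PUS1, a pseudouridine synthase, stood at 4.74, 4.58, 4.98 and 4.85 with APRIL and at 4.15, 4.41, 4.31 and 4.51 in control, wholly above it, with a change of 0.44 ± 0.14 (adjusted p = 0.40, limma). TUFM, the mitochondrial elongation factor that receives the charged tRNA, gave 0.36 ± 0.15, also without overlap, and 0.09 with the trends removed. TRIT1, which modifies tRNA in both compartments, gave -0.21 ± 0.13, with all APRIL libraries below all controls, and 0.00 with the trends removed. PET112, a subunit of the amidotransferase that completes mitochondrial glutamine tRNA, gave 0.38 ± 0.19, or 0.20 without APRIL column 3. With the trends removed PET112 was at 0.57 and PUS1 at 0.32.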

How the data were processed

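RNA of 8 MonoMac 6 libraries was prepared with a TruSeq RNA v2 kit, per the labels' protocols. TopHat2 2.0.13, bcl2fastq and hg19 are named in the submitters' processing notes. The sources used here give no read counter, annotation or gene filter. The authors deposited log2 values per library, scaled by a TMM factor per the file headers. A fold (APRIL over control) and its p-value were deposited for each gene as well.

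The members and lists were chosen with earlier results of these data known. Limma 3.58.1 (R 4.3.3) was fitted to the log2 values of 11257 genes with a trend on mean level and robust moderation, two-sided, with Benjamini-Hochberg adjustment. The fit and the recovery of reads were tested on simulated data. Members named in full are the 6 with the smallest p in each direction and the pairs that differ most (3) or least (2). Of each pathway list, at most the 3 genes with the smallest p per direction were named. Whole reads were recovered for 10716 genes (92.9%), and for 0 of 500 when the library constants were moved. Alternatives were other filters, weights, scaling, removal of trends with transcript length and GC content (GENCODE 29, 95.9% of genes matched), leaving out libraries and voom. Other steps ran in Python 3.11.15 (pandas 2.3.3, scipy 1.17.1), and matplotlib 3.10.9 drew the figures.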

Additional observations from a re-analysis of the deposited data

Results flagged for a closer look

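In 2 of 74 groups of 4 libraries, 1 library stood apart by its gap to the nearest other over the group's range; chance gives about 1 in 20. In NARS2, APRIL column 3 was at 5.17 and the other APRIL libraries at 5.64 to 5.67, a ratio of 0.95. In VARS, control column 1 was at 6.69 and the other controls at 7.10 to 7.17, a ratio of 0.85. Over all tested genes 11.5% of APRIL groups and 7.4% of control groups passed the same critical value (Dixon's, 95%).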

How the results depend on the processing

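No paired analysis was possible because the columns of the deposited table carry no replicate number. Limma called 0 genes in the fit reported and in every alternative but library quality weights, which called 4, none of them a synthetase. The members at an unadjusted p under 0.05 numbered 1 with quality weights (DARS), 1 with the length and GC trends removed (AARS) and 0 to 2 when each library was left out. The 2 were DARS and EPRS without APRIL column 2, and DARS was the 1 without control column 2. Over all genes the shares at that p were 17.0% with quality weights, 8.24% with the trends removed and 9.38% without control column 2, and without APRIL column 2 there were 2247 of 11257, so the members' counts were below the background in each. Members without overlap numbered 3 with the trends removed, 1 (AARS) without APRIL column 3 and control column 1, and 0 to 8 when each library was left out. The 8 came without APRIL column 2, when 23.69% of all genes were without overlap. Over all genes that share was 6.59% with the trends removed and 13.96% without APRIL column 3 and control column 1. As single libraries were dropped it ran from 9.04% to 23.69%. The median of the mitochondrial enzymes was -0.028 with the trends removed, 0.133 by voom on the recovered reads, which was chosen after seeing the data, and -0.001 to 0.102 when each library was left out. It was -0.001 without APRIL column 2 and 0.001 without control column 1. The median of the cytosolic enzymes was negative in every alternative, from -0.116 to -0.047 as single libraries were dropped. The difference of the compartment means, computed for fewer alternatives, was negative in each, from -0.173 to -0.108 over the same drops. Only 17 of the members were followed through the alternatives, and of these 11 kept their sign in each one run for them. IARS, NARS and FARSA had no voom value because their reads were not recovered. The others turned: PARS2 to -0.029 with quality weights, FARSA to -0.037, TARS to 0.056 and CARS to 0.064 with the trends removed, EARS2 to -0.005 and -0.001 without APRIL column 1 or 2, TARS2 to 0.002 without control column 4, and CARS to 0.019 without APRIL column 3, 0.053 without control column 4 and 0.018 by voom. With single libraries dropped, CARS ran from -0.065 to 0.053, EARS2 from -0.005 to 0.182 and TARS2 from -0.096 to 0.002. Members outside the 17 turned as well, among them LARS to 0.01 and YARS2 to -0.01 with quality weights and SARS2 to -0.03 with the trends removed. For these changes with the setting the cause was not tested. Depth limits PARS2, HARS2, FARS2, WARS2 and TARSL2 most, each under 20 reads in APRIL column 3.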

Other observations

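YARS alone of the 36 genes has a p-value under 0.05 in the authors' deposited table (0.0387, with a fold of 0.955), against 8.52% of the 11526 genes with a p-value there. Limma, which moderates the spread of each gene, gave YARS an unadjusted p of 0.498 and an adjusted p of 0.709. The 8 values of YARS span 9.23 to 9.37.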
